A study of Mus musculus with 12 samples.

Results

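The genes described here encode the cornified envelope and its companions in the late differentiation of squamous epithelium. They were followed in tumours grown from Sq-1979 cells, which come from a squamous carcinoma of the head and neck in the mouse. Members were all mouse symbols formed by Sprr or Lce, a number and letters, together with 13 genes named one by one (Ivl, Flg, Flg2, Hrnr, Tchh, Rptn, Tgm1, Tgm3, Cnfn, Dsg1a, Dsc1, Cdsn and Evpl). The rule found 47 of the 55487 gene identifiers in the count table and used no measured value. By role they were 13 small proline-rich genes, 21 late cornified envelope genes, 5 genes of the S100-fused family, 3 envelope scaffold genes, 2 transglutaminases and 3 genes of the corneodesmosome.

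When a keratinocyte of skin or oral mucosa leaves the basal layer and dies, it replaces its plasma membrane by a shell of cross-linked protein. Transglutaminases join involucrin and envoplakin into a first scaffold, small proline-rich proteins bridge the scaffold proteins, and late cornified envelope proteins and loricrin are added last. Filaggrin-type S100-fused proteins bundle keratin filaments inside the shell, and corneodesmosin with desmoglein 1 and desmocollin 1 holds the dead cells together. In squamous carcinomas these genes serve as a readout of how far tumour cells have gone along this path.

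The animals of all groups were male C3H/HeN mice that were 6 weeks old when the cells were placed under the skin in Matrigel, a basement membrane gel, and treatment began at day 20. The groups were regorafenib (5 mg/kg per day, an oral inhibitor of several kinases including VEGF receptors), anti-PD1 (an antibody to the immune checkpoint receptor PD1), the combination of both, and vehicle, with 3 libraries of polyadenylated RNA each. Every tumour descends from 1 cell line, and the labels give no number of mice per group, so p-values measure only the spread between these libraries. Library totals ran from 22591835 counts in regorafenib 2 to 28209036 counts in anti-PD1 3, at which 3 counts, the limit that a count of 0 allows, equal 0.104 to 0.133 CPM (counts scaled to a common library size with edgeR's TMM factors). That limit covers counting error only.

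The squamous identity in the labels was borne out by Krt5, the basal keratin, at 5239 to 7890 CPM in the 12 libraries, and by Trp63, the squamous lineage factor, at 334 to 541 CPM. These are whole tumours, so fewer cells of a kind and less RNA per cell cannot be told apart. The libraries also differed in other tissue. Summed CPM of 7 fibroblast genes were 4938 to 28769 with regorafenib, 5799 to 31448 with anti-PD1, 4154 to 12075 with the combination and 23144 to 31392 with vehicle, and 9 skeletal muscle genes summed to 22.3 CPM in regorafenib 1 and to 135 to 454 CPM in the other 11 libraries. Regorafenib 2 stood apart in some epidermal genes: Krt10, a keratin of suprabasal epidermis, had 27.1 CPM there and at most 0.797 CPM elsewhere. Results that rest on regorafenib 2 are therefore given with and without it.

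Most of the 47 genes were silent or nearly so in these tumours. No read was counted for 5 members, 22 had under 10 counts over all libraries, and 25 had 10 or more. The low-count filter left 11 members to test among 16974 genes: Sprr2a1, Sprr2a2, Sprr2a3, Sprr1a, Sprr1b, Lce1c, Tchh, Ivl, Evpl, Tgm1 and Cdsn. A gene could pass that filter through 1 group alone. The 36 other members are given as counts and ranges.

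Levels between genes were compared as mean CPM per kilobase of exon over the 12 libraries. On that scale the order was Sprr2a3 at 28.4, Sprr1a at 21.3, Evpl at 15.97, Tgm1 at 7.07, Tchh at 5.95, Ivl at 4.50, Lce1c at 1.77, Sprr1b at 1.30, Sprr2a1 at 0.855, Sprr2a2 at 0.693 and Cdsn at 0.218. The SD over libraries was 21.1 for Sprr2a3 and 8.08 for Sprr1a, wider than the step between them, and the step from Sprr1a to Evpl, with an SD of 3.88, was also within the spread of Sprr1a. Of the 13 small proline-rich genes 5 passed the filter, and of the 3 scaffold genes 2 did, while of the 21 late cornified envelope genes Lce1c alone passed. Evpl held 36.8% and Sprr2a3 29.6% of the members' summed CPM.

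**Figure D1:**
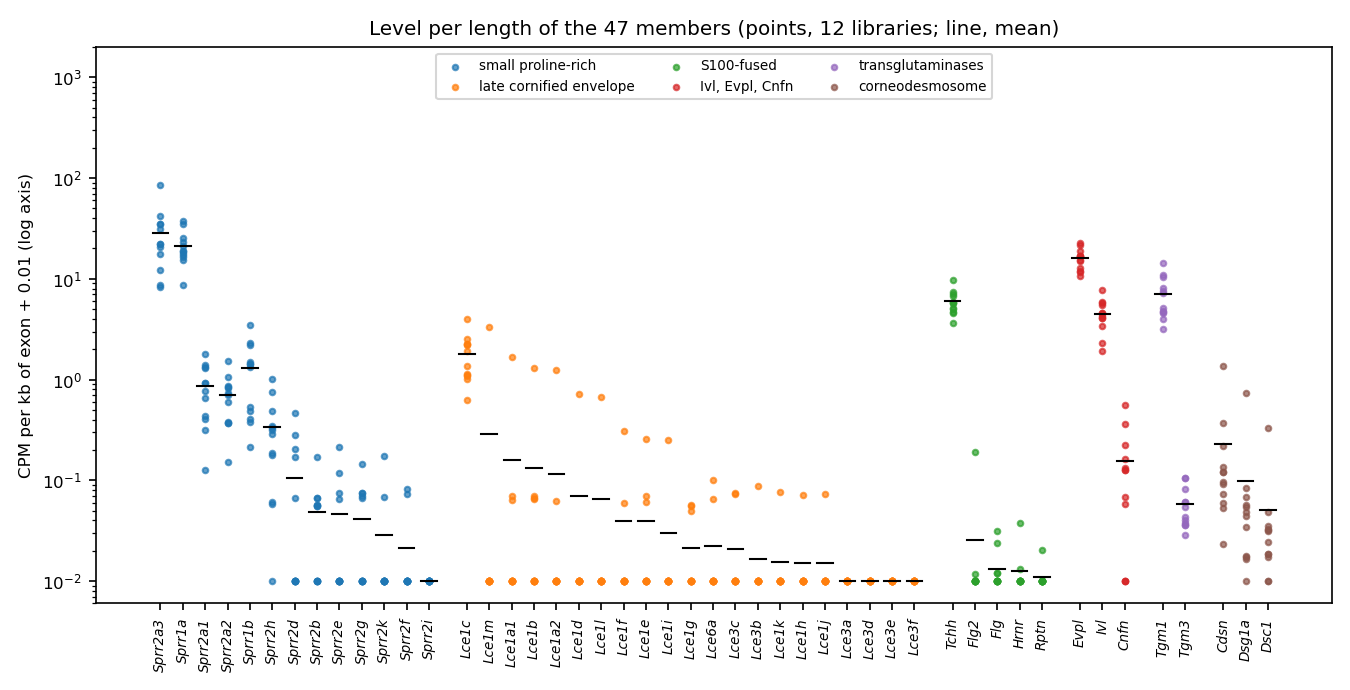
Level per length of the 47 members, by class, as CPM per kilobase of exon plus 0.01 on a log axis. Each point is 1 of the 12 libraries and each line is the mean over them. Sprr2a3, Sprr1a and Evpl lie highest, 5 members have no count at all, and several Lce genes have 1 point far above the rest, which is regorafenib 2.

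The summed CPM of all 47 members was 323 ± 78.4 with regorafenib, 259.8 ± 18.5 with anti-PD1, 267 ± 33.7 with the combination and 257 ± 62.5 with vehicle (SD, n = 3 each). All 4 groups overlapped. The highest sum was 413 CPM in regorafenib 1, of which 59.9% was Sprr2a3, and the lowest was 213 CPM in vehicle 1. The composition varied more than the sum: Sprr2a3 made up 8.40% of it in combination 1.

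**Figure D2:**
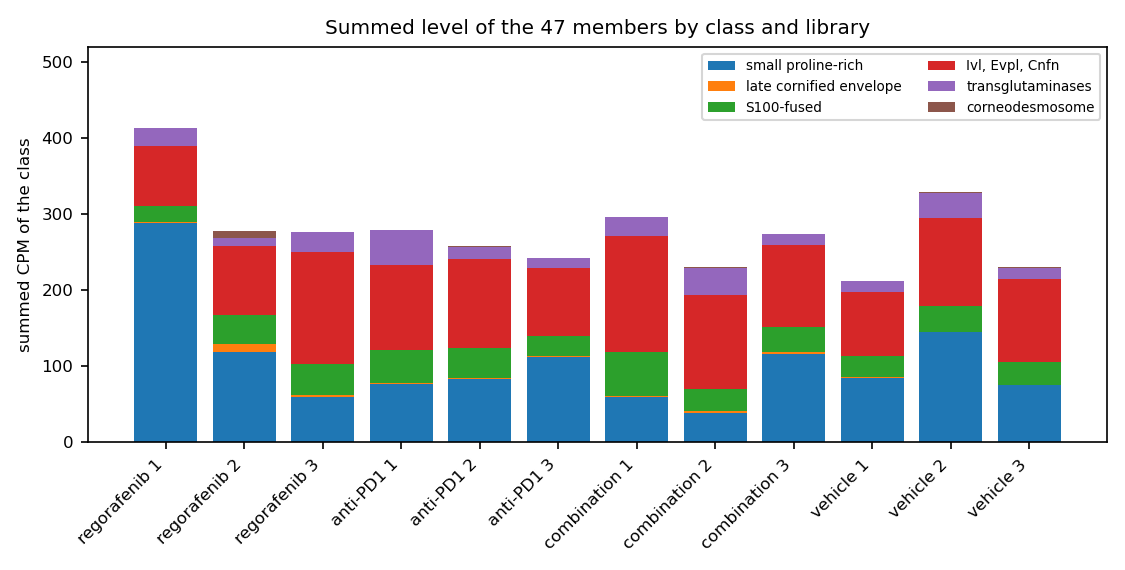
Summed CPM of the members by class in each library, stacked from 0. Small proline-rich genes and the Ivl, Evpl and Cnfn class make up most of every bar, the regorafenib 1 bar is the tallest at 413 CPM, and a visible share of late cornified envelope and corneodesmosome genes is present in regorafenib 2.

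The small proline-rich proteins are short, glutamine- and proline-rich bridges whose level varies with epithelium and with stress. Sprr2a3 had 247, 100.2 and 35.5 CPM in regorafenib tumours, 59.1, 64.1 and 90.2 CPM in anti-PD1 tumours, 24.9, 23.7 and 102 CPM in combination tumours, and 63.2, 121 and 51.3 CPM in vehicle tumours. The 10.5-fold range over the libraries ran from combination 2 to regorafenib 1, and all groups overlapped. Its largest difference was between combination and regorafenib tumours, a log2 fold change of -1.35 ± 0.71 (SE) with an adjusted p of 0.856 by edgeR's quasi-likelihood test with Benjamini-Hochberg adjustment. Without regorafenib 1 this log2 fold change was -0.44, and without combination 3 it was -2.40.

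Most of the sequence of Sprr2a1 and Sprr2a2 recurs in another gene, so they cannot be read as separate genes. The shares below do not say which other gene holds a stretch. Of all 50-base stretches of their transcripts, 96.3% of those of Sprr2a1 and 96.5% of those of Sprr2a2 also occur in another gene, against 61.1% for Sprr2a3, and the first pair share 43 exonic bases on the same strand. They averaged 2.57 and 2.02 CPM, and their highest library, like that of Sprr2a3 and Sprr1b, was regorafenib 1. How reads with several matches were counted is not given in the sources used here.

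Sprr1a, whose bridge protein is also known as a stress-induced product in other tissues, was more even. It had 28.4, 12.4 and 20.5 CPM with regorafenib, 15.1, 15.1 and 14.7 CPM with anti-PD1, 29.9, 13.2 and 6.99 CPM with the combination, and 13.97, 18.5 and 17.0 CPM with vehicle. The anti-PD1 libraries were nearly equal and the combination libraries spanned 4.27-fold, so the groups overlapped widely. Sprr1b, its neighbour, averaged 1.51 ± 1.24 CPM with regorafenib, 0.554 ± 0.551 with anti-PD1, 0.896 ± 0.432 with the combination and 1.34 ± 0.877 with vehicle (SD, n = 3 each). Among the 8 members of the class that were not tested, Sprr2h had the highest level, 0.751 CPM in combination 1, and Sprr2i had no count.

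The promoters of the members that carry these contrasts are shown for the 250 bases before and 50 bases after the RefSeq transcription start. Sprr2a3 and Sprr1a are shown as the most abundant bridging genes, Sprr2d as a near-silent relative, Lce1c as the only late cornified envelope gene above the filter, and Lce1m and Flg2 as genes counted almost solely in regorafenib 2. Sequences are from RefSeq on GRCm38.p6, read 5′ to 3′ along the gene, with the AP-1 motif TGANTCA in capitals. The AP-1 family of transcription factors is a known activator of epidermal differentiation genes.
Sprr2a3 (chr3:92285054-92285353, plus strand): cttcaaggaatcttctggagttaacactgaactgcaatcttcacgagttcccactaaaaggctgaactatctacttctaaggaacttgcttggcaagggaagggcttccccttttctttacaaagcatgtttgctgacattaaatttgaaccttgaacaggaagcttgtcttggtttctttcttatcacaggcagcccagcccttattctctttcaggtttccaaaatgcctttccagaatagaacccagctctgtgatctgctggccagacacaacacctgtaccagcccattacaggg
Sprr1a (chr3:92485832-92486131, minus strand): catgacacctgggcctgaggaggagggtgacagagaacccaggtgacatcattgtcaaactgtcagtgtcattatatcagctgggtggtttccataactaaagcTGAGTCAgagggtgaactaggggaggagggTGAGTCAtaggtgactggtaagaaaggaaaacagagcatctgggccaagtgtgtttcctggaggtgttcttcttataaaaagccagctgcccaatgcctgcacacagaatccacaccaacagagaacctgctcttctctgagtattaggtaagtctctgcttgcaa
Sprr2d (chr3:92338890-92339189, plus strand): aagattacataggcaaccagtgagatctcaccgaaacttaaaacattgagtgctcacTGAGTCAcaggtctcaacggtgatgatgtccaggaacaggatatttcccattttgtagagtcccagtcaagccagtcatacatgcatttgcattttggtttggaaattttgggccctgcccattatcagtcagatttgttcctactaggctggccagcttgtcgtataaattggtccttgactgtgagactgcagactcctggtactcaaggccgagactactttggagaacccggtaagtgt
Lce1c (chr3:92678997-92679296, plus strand): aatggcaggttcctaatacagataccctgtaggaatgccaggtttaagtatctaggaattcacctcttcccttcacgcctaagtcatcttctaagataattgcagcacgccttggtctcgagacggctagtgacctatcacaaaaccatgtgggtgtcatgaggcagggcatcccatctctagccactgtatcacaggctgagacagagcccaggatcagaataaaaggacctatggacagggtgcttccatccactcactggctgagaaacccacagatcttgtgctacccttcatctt
Lce1m (chr3:93019012-93019311, minus strand): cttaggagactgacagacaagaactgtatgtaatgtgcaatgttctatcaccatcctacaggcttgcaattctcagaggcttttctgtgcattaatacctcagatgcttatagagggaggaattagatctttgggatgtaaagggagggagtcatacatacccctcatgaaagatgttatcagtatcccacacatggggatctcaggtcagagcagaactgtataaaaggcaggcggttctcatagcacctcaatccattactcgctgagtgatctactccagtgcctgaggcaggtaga
Flg2 (chr3:93197023-93197322, plus strand): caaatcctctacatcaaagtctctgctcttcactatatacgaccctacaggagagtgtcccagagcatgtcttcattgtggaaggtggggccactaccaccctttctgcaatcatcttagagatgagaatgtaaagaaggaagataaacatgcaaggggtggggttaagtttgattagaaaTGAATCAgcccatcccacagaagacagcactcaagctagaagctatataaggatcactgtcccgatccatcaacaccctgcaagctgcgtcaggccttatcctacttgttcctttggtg

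RefSeq windows were found for 42 of the 47 members, and 1 window per gene was counted, although Cdsn and Tgm1 have 2 each. The AP-1 letters, which read the same on both strands, occurred in 13 of the 42 members (31.0%) and in 7.81% of all 32851 promoter windows. They were present in 9 of 12 small proline-rich windows and in 0 of 20 late cornified envelope windows. All 7 small proline-rich genes that were too low to test and had a window held the motif. Its first copy was at position -198 to -193 relative to the start, with TATAAA at position -29, and Sprr2k held 2 copies. Of the 5 tested relatives only Sprr1a, also with 2 copies, and Sprr1b held it. The RefSeq window of Sprr2a3, the most abundant member per length, held none. It ends at position 92285353, before the GENCODE start of the gene at 92285417, so the lack applies to the RefSeq start alone. Over 272 aligned bases this window was identical to those of Sprr2a1 and Sprr2a2. Their levels, 0.855 and 0.693 CPM per kilobase, are not set against that of Sprr2a3, because most of their sequence recurs in another gene.

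Of the other letters searched on both strands, TATAAA was in 42.9% of the member windows and 13.6% of all windows, and GGGNGNGG, a GC or CACCC box, in 26.2% of the member windows and 49.5% of all windows. A pair of GAAA letters with 2 bases between them was in 0 of these 42 member windows, in 3.44% of all windows, and once in the further window of Tgm1, which was not counted. None of the 4 patterns contains another. These are matches of letters in 300-base windows, and binding was not measured.

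Involucrin and envoplakin form the first scaffold. Evpl, which encodes the plakin that ties the scaffold to desmosomes, was the steadiest member: it had 68.0, 74.5 and 139.6 CPM with regorafenib, 107, 108 and 82.2 CPM with anti-PD1, 145, 121 and 95.6 CPM with the combination, and 75.4, 108 and 98.4 CPM with vehicle. Its 2.13-fold range over the 12 libraries was the narrowest of the 11 tested members. Combination against vehicle gave a log2 fold change of 0.36 ± 0.27 (SE) with an adjusted p of 0.408 by edgeR.

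Ivl, which encodes involucrin, the classic early envelope protein, had 10.95, 14.95 and 7.90 CPM with regorafenib, 4.41, 8.71 and 6.47 CPM with anti-PD1, 8.22, 3.69 and 11.4 CPM with the combination, and 8.68, 7.82 and 10.6 CPM with vehicle. The lowest libraries, combination 2 and anti-PD1 1, were from groups that received the antibody, and all 4 groups overlapped. The average anti-PD1 effect, the mean of anti-PD1 against vehicle and combination against regorafenib, was -0.50 ± 0.28 (SE, log2) with an adjusted p of 0.59 by edgeR. Cnfn, which encodes the envelope protein cornifelin, had 31 counts over all libraries and was highest at 0.396 CPM in regorafenib 2.

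Among the S100-fused genes only Tchh was tested. It encodes trichohyalin, a keratin-binding protein best known from the inner root sheath of hair and the papillae of the tongue. It had 20.97, 34.5 and 40.9 CPM with regorafenib, 43.4, 39.2 and 26.8 CPM with anti-PD1, 57.2, 29.0 and 33.6 CPM with the combination, and 27.1, 33.5 and 29.5 CPM with vehicle. The 9 hair follicle keratins in the table, of 10 listed, summed to 0.0423 to 0.396 CPM in any library, so the trichohyalin level was not accompanied by those keratins. Flg, Hrnr and Rptn, which encode filaggrin, hornerin and repetin, had 17, 8 and 1 counts over all libraries, with 9 of the filaggrin counts in combination 1 and 6 in regorafenib 2.

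Tgm1 encodes the membrane-bound transglutaminase that builds the envelope. It had 23.0, 9.98 and 25.9 CPM with regorafenib, 45.5, 16.1 and 12.6 CPM with anti-PD1, 23.7, 34.5 and 15.1 CPM with the combination, and 14.5, 32.6 and 14.9 CPM with vehicle. Each group held both low and high libraries, and no group stood apart. Its log2 fold changes against vehicle were -0.08 ± 0.55 for regorafenib, 0.26 ± 0.55 for anti-PD1 and 0.24 ± 0.55 for the combination (SE), with adjusted p of 0.965, 0.937 and 0.808 by edgeR. Of its exonic bases, 182 overlap a gene on the opposite strand, and the strand setting of the counting is not given in the sources used here. Tgm3, the transglutaminase of hair and terminal layers, was at 0.0771 to 0.398 CPM in every library, with 2 to 9 counts.

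**Figure D3:**
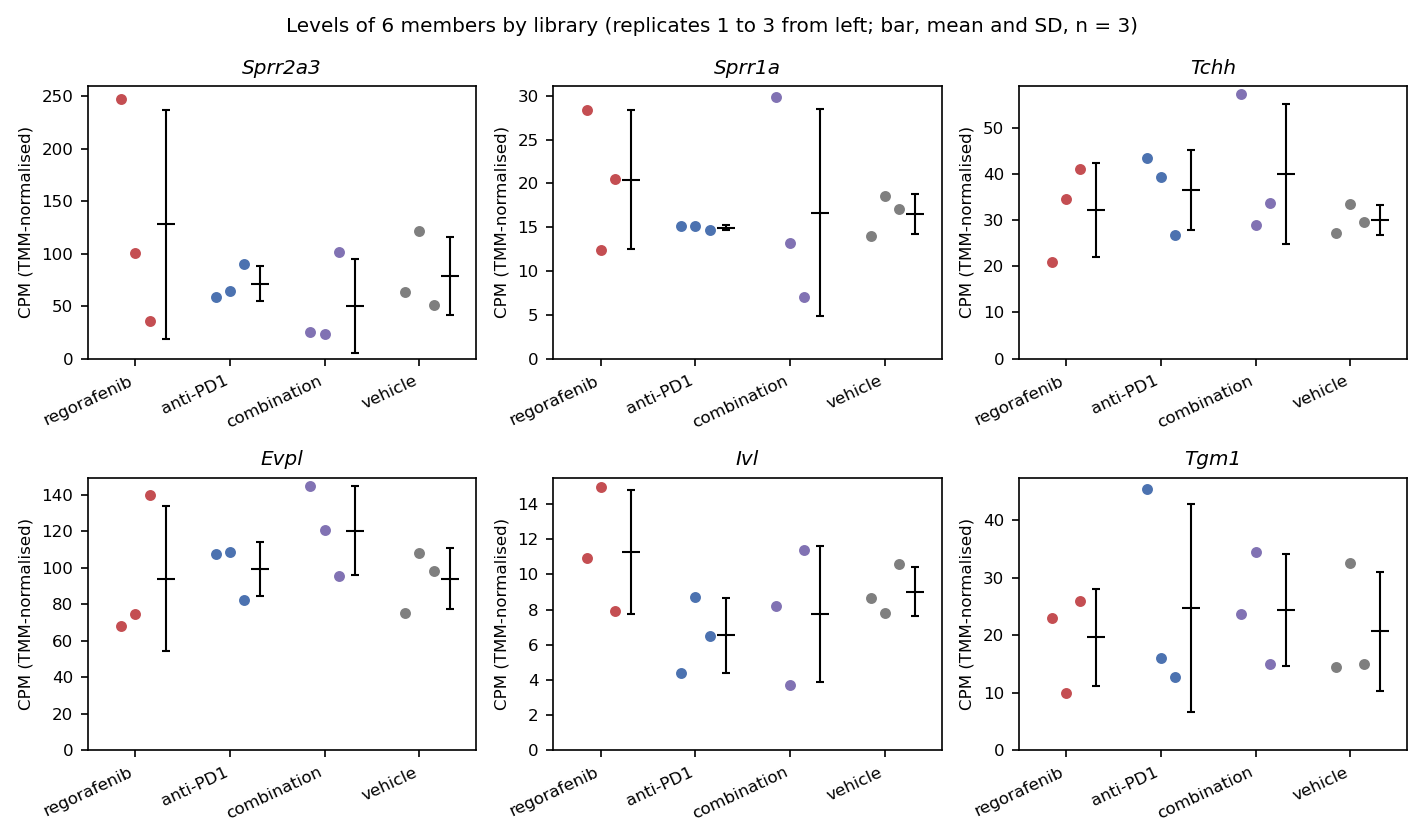
CPM of the 6 most abundant members in each library, on linear axes from 0, with the mean and SD of each group (n = 3) beside its points. All 4 groups overlap for each of the 6 genes, and the widest spread is that of Sprr2a3, from 23.7 CPM in combination 2 to 247 CPM in regorafenib 1.

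Lce1c was the one member whose difference passed the threshold in any comparison. It encodes a late cornified envelope protein whose human relatives are made in normal skin. It had 0.973, 2.86 and 1.62 CPM with regorafenib, 0.806, 1.38 and 0.718 CPM with anti-PD1, 1.81, 1.64 and 1.59 CPM with the combination, and 0.797, 0.443 and 0.771 CPM with vehicle. Every regorafenib and every combination library lay above every vehicle library, while regorafenib 1 lay below anti-PD1 2. The average regorafenib effect, the mean of regorafenib against vehicle and combination against anti-PD1, was a log2 fold change of 1.11 ± 0.29 (SE), with an adjusted p of 0.0386 by edgeR.

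That call was narrow. It rests on 12 to 65 counts per library, and 23.9% of the 50-base stretches of Lce1c also occur in another gene. The adjusted p ranged from 0.00607 to 0.0902 over 16 alternatives, 4 of which passed, and the log2 fold change from 0.88 without regorafenib 2 (adjusted p = 0.0547) to 1.28. Against vehicle, the log2 fold change was 1.43 ± 0.41 for regorafenib (adjusted p = 0.202), 0.53 ± 0.42 for anti-PD1 (adjusted p = 0.866) and 1.32 ± 0.41 for the combination (adjusted p = 0.074), all by edgeR with SE. The interaction of the drugs was -0.64 ± 0.58 (SE, log2) with an adjusted p of 1.00. Of 7 tested fibroblast genes, edgeR called 1 in the average regorafenib effect, where 9.49% of all tested genes were called. It was Lum, which encodes lumican and fell. An unadjusted p under 0.05 by edgeR was reached by 4 of the 7, against 4745 of 16974 genes. Sums of the fibroblast genes are given above, and their part in the result was not tested.

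**Figure D4:**
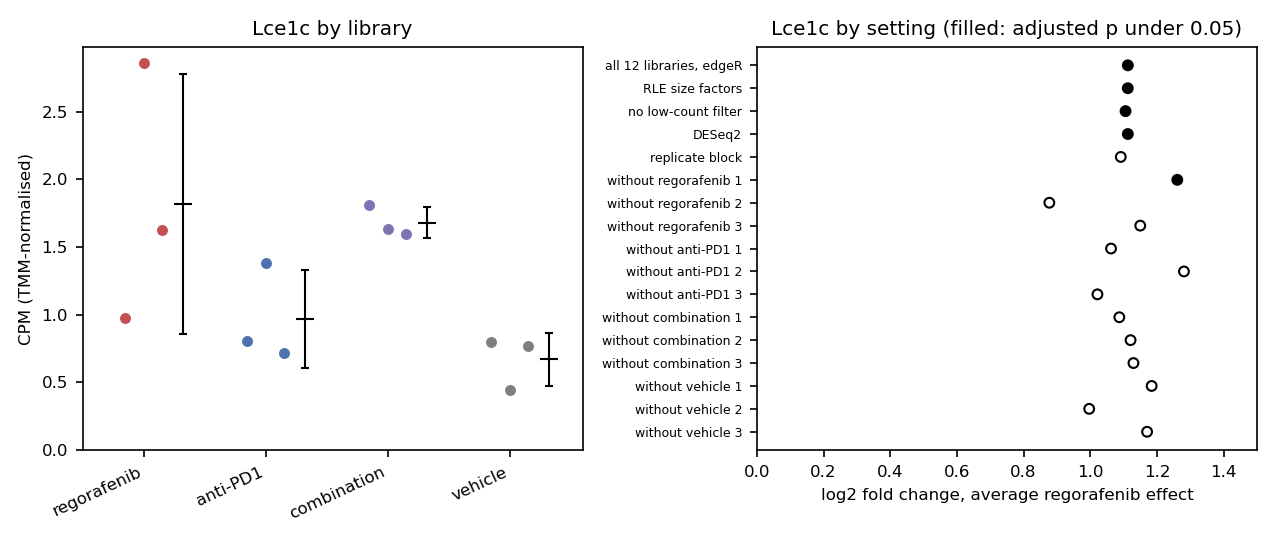
Left, Lce1c in CPM by library on a linear axis from 0, with mean and SD (n = 3). Right, its log2 fold change for the average regorafenib effect in all 12 libraries and under 16 alternatives, filled where the adjusted p was under 0.05. The estimate stays between 0.88 and 1.28, and with 1 library left out it is filled only without regorafenib 1.

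With regorafenib against vehicle, edgeR called 0 of the 11 tested members, where 0.00589% of all tested genes were called. Lce1c and Cdsn had an unadjusted p under 0.05, against 2398 of the 16974 genes, and DESeq2 also called 0 members. Lce1c and Cdsn were also the members whose regorafenib libraries all lay above the vehicle libraries, a separation shown by 20.8% of all tested genes. Of the 11 members, 10 had a positive log2 fold change, with a median of 0.25 and a median over all genes of 0.01. Cdsn had a log2 fold change of 2.92 ± 1.05 (SE) and an adjusted p of 0.262, and without regorafenib 2 its log2 fold change was 1.20. It reached 10 counts in 3 libraries alone, with 83 in regorafenib 2, 15 in regorafenib 3 and 28 in combination 2, against 1 to 8 in the others. It thus passed the filter through regorafenib-treated libraries, and neither its tests nor its place in the counts above support anything.

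With anti-PD1 against vehicle, edgeR called 0 of 11 members, where 0.0% of all tested genes were called. No member had an unadjusted p under 0.05, against 878 of the 16974 genes, DESeq2 called 0 members, and no member separated the groups, as 17.0% of all genes did. The largest log2 fold change was that of Sprr1b, -1.24 ± 0.87 (SE). The average anti-PD1 effect likewise gave 0 of 11 calls with edgeR and DESeq2 and 0 unadjusted p under 0.05, where 0.0% of all tested genes were called. Of the 16974 genes, 1485 had such a p.

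With the combination against vehicle, edgeR called 0 of 11 members, where 7.34% of all tested genes were called. Lce1c alone had an unadjusted p under 0.05, at 0.00883, against 4743 of the 16974 genes. It was the 1 member that DESeq2 called, and DESeq2 called more genes than edgeR over all in this comparison. It was also the 1 member whose groups did not overlap, where 39.2% of all genes did not. The members split into 6 positive and 5 negative log2 fold changes, with a median of 0.01 and a median over all genes of 0.02.

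For the average regorafenib effect edgeR called 1 of 11 members, Lce1c, where 9.49% of all tested genes were called and 6.16% were called higher. A share of 1 in 11 is close to that background. Cdsn had a log2 fold change of 2.10 ± 0.76 (SE) with an adjusted p of 0.105 by edgeR, was called by DESeq2, and had 1.24 without regorafenib 2, with the same limit from the filter. No member separated the 6 regorafenib-treated libraries from the 6 others, as 4.64% of all genes did. The median log2 fold change of the 11 members was 0.14, and that of all genes was 0.00303.

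The combination was also set against each drug alone. Against anti-PD1, edgeR and DESeq2 called 0 of 11 members and none had an unadjusted p under 0.05, where 1.92% of all tested genes were called by edgeR. Against regorafenib, edgeR and DESeq2 called 0 of 11, none had an unadjusted p under 0.05, and 0.0% of all tested genes were called. In the interaction the count was likewise 0 of 11 by both tools with 0 unadjusted p under 0.05, and 0.0% over all genes. Of all 16974 genes, 3271 had such a p against anti-PD1, 925 against regorafenib and 449 in the interaction. The 8 comparisons share libraries and are not independent of each other.

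The members varied more between libraries of 1 group than most genes. Their biological coefficient of variation, the spread beyond counting error that edgeR estimates, had a median of 0.459 and ran from 0.234 to 0.794, and the median over all tested genes was 0.170. The estimate lay above the trend for genes of like abundance in 10 of the 11 members and in 25.8% of all genes.

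A set of terminal-layer genes was counted mainly in a single library. Of the 25 members with 10 or more counts, 13 were highest in regorafenib 2, where 8.99% of all genes with that many counts were highest. In 10 members over 50% of the summed CPM came from regorafenib 2, a share reached by 0.122% of all genes, 28 of 22914. The 10 were Lce1a1, Lce1a2, Lce1b, Lce1d, Lce1l, Lce1m, Flg2, Cdsn, Dsg1a and Dsc1, and they made up 35.7% of the 28 genes. Their summed CPM was 20.2 in regorafenib 2, 0.381 and 0.664 in regorafenib 1 and 3, and 0.221 to 1.15 in the anti-PD1, combination and vehicle libraries.

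Lce1m, a late cornified envelope gene at the distal end of the Lce genes, had 72 counts in regorafenib 2 (3.17 CPM) and 0 in each of the other 11 libraries. Flg2, which encodes filaggrin 2, a processed keratin-bundling protein of the uppermost layers, had 86 counts in regorafenib 2 (3.78 CPM), 1 count in combination 2 and 0 in the other 10. Both sequences are among those printed above, and of that pair Flg2 alone carries the AP-1 letters. Neither gene shares a 50-base stretch with another gene. Of the 21 late cornified envelope genes, 15 had a count in regorafenib 2, and between 1 and 5 had one in any other library. Summed counts of the class were 242 in regorafenib 2 and 14 to 48 in the others.

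Among the adhesion genes of the outer layers, Cdsn, Dsg1a and Dsc1 were highest in the same library. Cdsn, which encodes corneodesmosin, the glue protein of the dead layers, had 0.338, 3.65 and 0.554 CPM with regorafenib, 0.297, 0.230 and 0.0359 CPM with anti-PD1, 0.133, 0.975 and 0.217 CPM with the combination, and 0.168, 0.295 and 0.116 CPM with vehicle. Dsg1a, which encodes a desmosomal cadherin of suprabasal cells, had 0, 4.13 and 0.0369 CPM with regorafenib, 0.0424, 0.192 and 0.251 CPM with anti-PD1, 0.0442, 0.139 and 0.217 CPM with the combination, and 0.419, 0.332 and 0.27 CPM with vehicle. Apart from regorafenib 2, the vehicle libraries were the highest for Dsg1a, at 7 to 10 counts each. Dsc1, its desmocollin partner, had 37 counts in regorafenib 2 and 0 to 5 elsewhere. The related Dsg1b and Dsg1c, which are not members, were not highest there: Dsg1b had 9 counts in regorafenib 2, 25 in anti-PD1 2 and 28 in vehicle 2, and Dsg1c had 3 counts in regorafenib 2 and 12 in anti-PD1 2. Of the 50-base stretches of Dsg1a, 35.02% also occur in another gene.

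Some other epidermal genes were high in the same library, and others were not. Of the 18 remaining genes with over 50% of their CPM in regorafenib 2, 7 belonged to the wider epidermal lists: Krt1, Krt10, Krt77, Kprp, Calm4, Alox12b and Acer1. Krt1 and Krt10, the keratin pair of suprabasal epidermis, had 8.27 and 27.1 CPM there and at most 0.104 and 0.797 CPM elsewhere, and Krt77, known in humans from sweat ducts, had 24.3 CPM and at most 0.174 CPM elsewhere. Loricrin (Lor) was at 8.49 CPM in regorafenib 2 and at 0.626 to 4.06 CPM in the other 11. In regorafenib 2, Evpl was at 74.5 CPM and Sprr1a at 12.4 CPM, inside the ranges of the other 11, while Ivl was at 14.95 CPM, its highest value, with 11.4 CPM in combination 3 next. Tgm1 was at 9.98 CPM in regorafenib 2, its lowest value of all libraries. Casp14 and Krtdap, of the wider lists, had 426 and 220 counts there. In the vehicle libraries they had 703 to 875 and 353 to 564 counts. Casp14 had 205 and 415 counts in regorafenib 1 and 3, and 200 to 389 with the combination. Krtdap had 132 and 345 counts in regorafenib 1 and 3, and 142 to 231 with the combination. Among regorafenib-treated libraries Casp14 was thus highest in regorafenib 2, and Krtdap was not. These are raw counts, and regorafenib 2 had the lowest library total. Hair follicle keratins summed to 0.396 CPM in this library, the highest of the 12, from 9 counts. Skeletal muscle genes summed to 412 CPM, within the 22.3 to 454 CPM of the others. Fibroblast genes summed to 28769 CPM, against 10341 and 4938 CPM in regorafenib 1 and 3, and at most 31448 CPM in any library. Their part in the result was not tested.

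**Figure D5:**
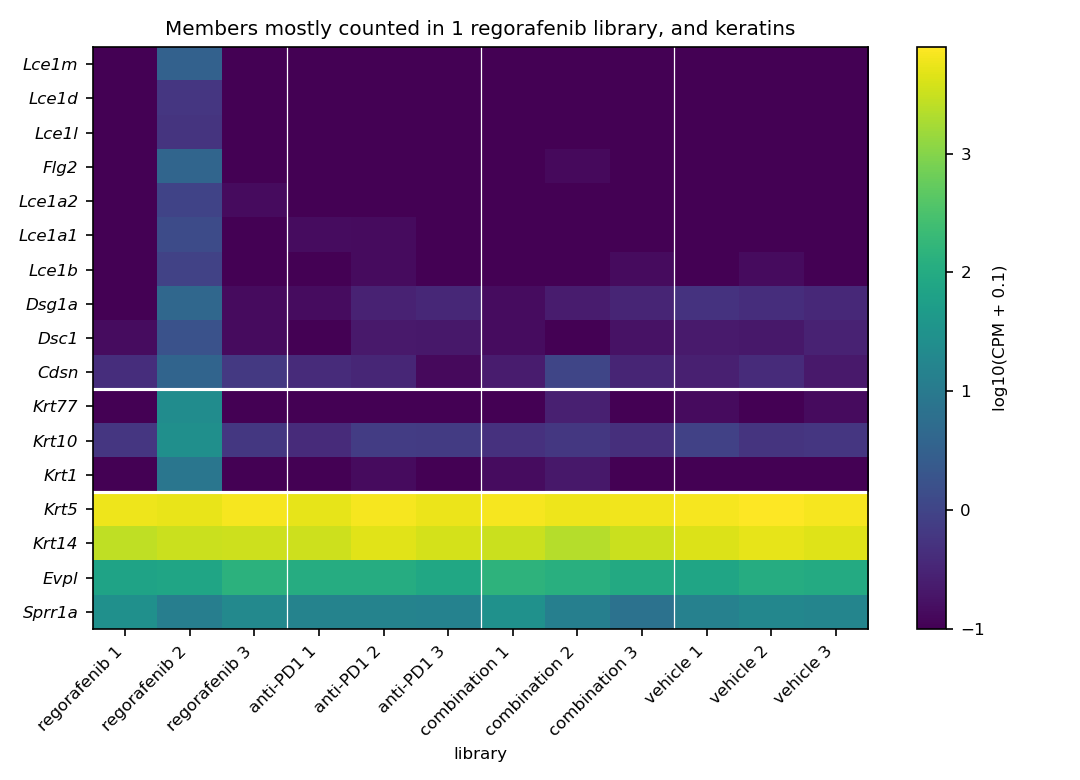
Heat map of log10(CPM + 0.1) in the 12 libraries for the 10 members with over 50% of their CPM in regorafenib 2 (top), Krt1, Krt10 and Krt77 (middle; the 3 of 6 listed suprabasal keratins with over 50% of their CPM there), and Krt5, Krt14, Evpl and Sprr1a (bottom). Each row of the top and middle blocks is brightest in the regorafenib 2 column, and the bottom block is nearly even across columns. All rows share a colour scale, so members with low CPM stay dark in that column too. Of the keratins not shown, Krt4 and Krt13 were not highest in regorafenib 2 and Krt2 had no count.

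The members lie mainly in 1 cluster. On GRCm38, 40 of the 47 are between positions 92215799 and 93449077 of chromosome 3, the epidermal differentiation complex, a stretch of 1.23 Mb with 52 annotated protein-coding genes. Genes tested in that stretch numbered 13, of which 8 were members. The 2 desmosomal cadherin genes are on chromosome 18, and Evpl, Cnfn, Tgm1, Tgm3 and Cdsn are on chromosomes 11, 7, 14, 2 and 17. Expressed and silent genes were interleaved along the cluster: Sprr1a (92483952 to 92485895) and Ivl (92570902 to 92573735) lie between the near-silent Sprr2 genes and the Lce1 genes.

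Other genes of the envelope pathway were described by lists drawn up with earlier results of these data known. Of 10 tested proteases, inhibitors and deiminases that act on envelope and filaggrin proteins, 1 rose and 1 fell in the average regorafenib effect, and 2 fell with the combination against vehicle, where 9.49% and 7.34% of all tested genes were called in those 2 comparisons. An unadjusted p under 0.05 by edgeR was reached by 6 of the 10 in each comparison, against 4745 and 4743 of 16974 genes. DESeq2 called 3 of the 10 in the average effect and 4 with the combination. The shares over all genes given here are edgeR's. DESeq2 called more genes than edgeR in both comparisons, with its totals given in the closing section. Casp14, the caspase that processes filaggrin, had 8.67, 18.7 and 15.3 CPM with regorafenib, 13.8, 31.7 and 23.9 CPM with anti-PD1, 14.2, 6.96 and 14.1 CPM with the combination, and 29.5, 31.2 and 33.7 CPM with vehicle. All regorafenib and combination libraries lay below the vehicle libraries, and anti-PD1 1 lay within the regorafenib range. Of all tested genes, 20.8% separated regorafenib from vehicle and 39.2% separated the combination from vehicle, in either direction. Its average regorafenib effect was -1.06 ± 0.25 (SE, log2; adjusted p = 0.0303 by edgeR), and combination against vehicle gave -1.42 ± 0.36 (adjusted p = 0.0429).

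Spink5, the inhibitor of the kallikreins that release corneocytes, fell with the combination, averaging 8.59 ± 1.93 CPM with the combination and 15.3 ± 2.19 CPM with vehicle (SD, n = 3 each), a log2 fold change of -0.83 ± 0.21 (SE) with an adjusted p of 0.0418 by edgeR. Its raw counts were 272 to 280 with regorafenib, 221 to 296 with anti-PD1, 184 to 258 with the combination and 307 to 465 with vehicle. Every vehicle library thus had more Spink5 counts than any treated library, and the lower level was not particular to the combination. EdgeR called no gene of this list for either drug alone against vehicle. Padi3, a deiminase that modifies trichohyalin and filaggrin, rose in the average regorafenib effect by 0.75 ± 0.16 (SE, log2; adjusted p = 0.0227 by edgeR). It averaged 23.9 ± 5.02 CPM with regorafenib, 9.86 ± 2.64 with anti-PD1, 18.5 ± 3.84 with the combination and 15.9 ± 2.18 with vehicle (SD, n = 3 each). The median log2 fold change of the list was 0.21, with 0.00303 over all genes. With 1 library left out, the Casp14 calls were lost without vehicle 1, 2 or 3, anti-PD1 3 or combination 2, the average effect also without anti-PD1 2, and the combination call also without combination 1 or 3. Spink5 lost its call without any vehicle or combination library or anti-PD1 2, and Padi3 without vehicle 2, vehicle 3, anti-PD1 2 or combination 2. Over 16 alternatives the adjusted p reached 0.0836 and 0.137 for Casp14, 0.148 for Spink5 and 0.063 for Padi3.

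In the average regorafenib effect edgeR called none of 11 tested other envelope proteins (1 unadjusted p under 0.05; DESeq2 1), 7 barrier lipid enzymes (2; DESeq2 0), 19 regulators of differentiation (3; DESeq2 2), 10 other desmosome genes (2; DESeq2 0), 3 suprabasal keratins (1; DESeq2 1) and 4 stress keratins (0; DESeq2 0). Over all tested genes edgeR called 9.49%, and 4745 of 16974 had an unadjusted p under 0.05. The regulators, Trp63, Klf4 and Grhl3 among them, had median log2 differences of -0.10, and the desmosome genes of -0.17, with 0.00303 over all genes. For the combination against vehicle edgeR again called 0 in each of these 6 lists, with 0 to 3 unadjusted p under 0.05 a list and 0 to 2 calls by DESeq2. Over all tested genes edgeR called 7.34% in that comparison, and 4743 of 16974 had an unadjusted p under 0.05. DESeq2 called more genes over all than edgeR in both comparisons, as the closing section gives, so its counts have a higher background.

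Of 8 tested basal cell genes, 1 fell in the average regorafenib effect, and 1 rose and 1 fell with the combination against vehicle, beside 9.49% and 7.34% called over all tested genes in those 2 comparisons. Krt14, the partner of Krt5, fell in the average regorafenib effect by 0.52 on the log2 scale (SE 0.13; adjusted p = 0.0303 by edgeR) and with the combination against vehicle by 0.69 (SE 0.18; adjusted p = 0.0429). It averaged 3114 ± 338 CPM with regorafenib, 3960 ± 725 with anti-PD1, 2894 ± 526 with the combination and 4680.0 ± 395 with vehicle (SD, n = 3 each). Itgb4, the hemidesmosome integrin, rose with the combination to 1496 ± 263 CPM, against 927 ± 56.9 CPM with vehicle (SD, n = 3 each), a log2 fold change of 0.69 ± 0.19 (SE; adjusted p = 0.0489 by edgeR). Its raw counts were 24365, 21659 and 40630 with regorafenib, 25483 to 26408 with anti-PD1, 33125 to 48906 with the combination and 22195 to 26617 with vehicle. Regorafenib 3 thus lay within the combination range. Of 12 tested S100 genes that flank the cluster, S100a13 and S100a16 fell with the combination against vehicle, by 0.37 and 0.49 on the log2 scale with adjusted p of 0.0499 and 0.0383 by edgeR, and S100a13 also fell in the average regorafenib effect, by 0.32 (adjusted p = 0.0231). The shares called over all tested genes were again 7.34% for the combination against vehicle and 9.49% for the average effect. Of the 12 S100 genes, 6 had an unadjusted p under 0.05 by edgeR in each of the 2 comparisons. DESeq2 called 6 of the 12 in the average effect and 5 with the combination. Of the 8 basal cell genes, 3 had such a p in each comparison, and DESeq2 called 2 in each. Over all tested genes, 4745 and 4743 of 16974 had such a p in the average effect and the combination. The shares called over all genes are edgeR's, and DESeq2 called more genes in both comparisons, as the closing section gives. All of the edgeR calls named here were lost without vehicle 1, 2 or 3. Krt14 also lost its average call without anti-PD1 2, regorafenib 1 or combination 2 and its combination call without anti-PD1 3 or combination 1 or 2, Itgb4 without any anti-PD1 library, combination 1 or combination 2, and S100a16 without combination 1 or 2. S100a13 kept its combination call without regorafenib 1 or 2 alone, and lost its average call also without anti-PD1 3 or combination 2. The adjusted p reached 0.0811 (average effect) and 0.145 (combination) for Krt14, 0.185 for Itgb4, 0.154 and 0.0643 for S100a13 and 0.13 for S100a16 over 16 alternatives. Fibroblast sums differed between the same groups, as given above, and their part in these results was not tested.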

How the data were processed

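RNA was measured in 12 tumour libraries from 4 groups. The deposited table holds raw counts for 55487 Ensembl identifiers, and the authors' counts were used unchanged. Per the labels' protocols, libraries were stranded and polyadenylated. The submitters' processing notes name cutadapt 2.4, STAR 2.7.2a and GRCm38. How reads were counted, with which strand setting and on which annotation release, is not given in the sources used here. GENCODE M21 gave symbols and coordinates, with 55227 identifiers found when versions were ignored.

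The filter filterByExpr (minimum 10 counts, total 15) left 16974 genes. edgeR 4.0.16 in R 4.3.3 fitted 4 group means over 12 libraries, with TMM scaling and 8 residual degrees of freedom. Robust quasi-likelihood F tests were two-sided, and p-values of 8 comparisons were each adjusted by Benjamini-Hochberg over all genes, with a threshold of 0.05. SE is the absolute log2 fold change divided by the square root of F. Per-length levels divide CPM by merged exon bases. The procedure was tested on simulated data.

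Given in full are members past the threshold, the 2 most abundant of each role and the 3 tested members with the smallest p. Lor, Krtdap, Krt1, Krt10, Krt77, Krt13, Krt4, Krt2, Dsg1b, Dsg1c, Grhl3, Klf4, Trp63, Sprr2h, Sprr2d, Sprr2k, Dsc1, Flg, Hrnr, Rptn, Cnfn and the genes at their highest in single libraries were named after their values were seen. Members and lists were chosen with earlier results of these data known. Alternatives were DESeq2 1.42.0, RLE factors, no low-count filter, replicate number as a block, and each library left out in turn.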

Additional observations from a re-analysis of the deposited data

How the results depend on the processing

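For the average regorafenib effect the count of members past the threshold was 1 with edgeR, 2 with DESeq2 (Lce1c and Cdsn), 1 with RLE factors or no low-count filter, 0 with the replicate block, and 0 to 1 with each library left out. For the combination against vehicle it was 0, 1 with DESeq2 (Lce1c), 0 in the block, and 0 to 1 with a library left out. The 6 other comparisons gave 0 members under every alternative run. Lce1c kept its average regorafenib call without regorafenib 1 and lost it without each of the other 11 libraries, and it passed in the combination against vehicle without regorafenib 1 or regorafenib 2. With the block its adjusted p was 0.0816 by edgeR, and each call of the wider lists also passed the threshold no longer. No result changed direction under any alternative. Over all genes the average regorafenib effect had 1610 calls, 2749 with DESeq2, 959 without the filter, 504 with the block and 460 to 2048 with a library left out. The combination against vehicle had 1246, with 2542, 663, 11 and 1 to 1517, and the combination against anti-PD1 had 326, with 1160, 221, 0 and 0 to 432. Regorafenib against vehicle had 1, with 390, 6, 0 and 0 to 4. The cause was not tested. The labels do not tie a replicate number to anything shared across groups, and of 18 same-numbered pairs 2 correlated above 0.1 (r from -0.657 to 0.630), so the numbers were not taken as pairs. Members under the filter were not tested.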

Other observations

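Relatives outside the symbol rule were also low. Sprr3, an oral and oesophageal small proline-rich gene, had 1 to 8 counts per library (0.0348 to 0.339 CPM), Sprr4 had 2 counts in combination 2 and none elsewhere, and the pseudogene Sprr2c-ps had none. The pseudogene Sprr2j-ps had 65 counts (2.75 CPM) in regorafenib 1 and 2 to 19 counts in the other 11 libraries. Regorafenib 1 was also the highest library of Sprr2a1, Sprr2a2, Sprr2a3 and Sprr1b.

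Combination 1 was the highest library of 7 of the 25 members with 10 or more counts: Sprr1a, Sprr2d, Sprr2h, Tchh, Evpl, Flg and Tgm3. It was the highest library for 13.3% of all genes with that many counts. Krt13, a suprabasal keratin of oral mucosa, was at 7.34 CPM in regorafenib 2 and at 4.19 to 16.2 CPM in the other 11 libraries.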
